A study of Mus musculus with 6 samples.

Results

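The colony-stimulating factors and stem cell factor are secreted or membrane-bound proteins that control the survival and growth of blood and immune cells, mast cells, pigment cells and germ cells. Here the 5 ligand genes *Csf1*, *Il34*, *Csf2*, *Csf3* and *Kitl* and the 2 receptor genes *Csf1r* and *Kit* were taken by gene name, and all 7 were found among the 43346 genes counted. RNA-seq was performed on primary mouse adult fibroblasts (MAFs) from the ears of female adult C57BL6/J mice, with 3 control and 3 senescent samples. The senescent MAFs had received X-rays at 20 Gy and were kept for 21 further days, and the control MAFs were sham irradiated. All of the cells grew at 3% oxygen in medium with fetal bovine serum and were used between passages 3 and 8. They received 100 nM dexamethasone, a glucocorticoid, for 2 hours to set their circadian clocks to a common phase. They were collected 12 hours after that, so every value describes a single time point after a glucocorticoid pulse. The sources used here do not say whether replicates came from separate mice or cultures, so p-values measure the spread between these samples, which may be technical.

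CSF1 and IL-34 are different proteins that bind the same receptor, CSF1R, a tyrosine kinase on macrophages and their relatives. CSF2 (GM-CSF) acts through a receptor built from CSF2RA and the common beta chain CSF2RB, and CSF3 (G-CSF) acts on neutrophils and their precursors through CSF3R. KITL (stem cell factor) binds KIT, a receptor of the same kinase class as CSF1R that mast cells and melanocytes need. Fibroblasts are a known source of CSF1 and KITL, keratinocytes are the best-known source of IL-34 in skin, and GM-CSF is a known member of the senescence-associated secretory phenotype (SASP).

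The sequences of *Csf1* and *Csf2* are shown first, because these were the most abundant member and the tested member with the largest increase. The upstream window of *Csf1* lies on the minus strand at chr3:107760470-107760719 (RefSeq, GRCm38.p6, the assembly that mm10 names), directly before the annotated start. Capitals mark a match to a classical NF-kB site of 10 letters, which reads here as the reverse complement.

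Csf1 upstream: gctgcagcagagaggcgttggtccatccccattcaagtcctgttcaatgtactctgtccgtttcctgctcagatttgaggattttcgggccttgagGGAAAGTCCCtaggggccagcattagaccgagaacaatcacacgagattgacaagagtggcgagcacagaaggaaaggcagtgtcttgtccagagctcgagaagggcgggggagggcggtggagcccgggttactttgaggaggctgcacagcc

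On either strand, that site occurs in 0.14% of the 32851 upstream windows of 250 bases. The windows of *Kit*, *Kitl* and *Csf2* hold no match to it, and these 4 members are those for which a window was at hand. The AP-1 letters TGACTCA (4.46% of all windows) and the E-box CACGTG (6.02%) were found in none of the 5 windows of these 4 members, of which *Kit* has 2, on either strand. The *Csf2* window lies before a RefSeq start at chr11:54249899 on the minus strand, whereas the gene span used for the counts starts at 54249667. The bases between these positions were not searched. *Kitl* holds a TATA box motif, which was searched for as TATAAA and is found in 12.4% of windows. It is given in capitals in the stretch from chr10:100015784-100015813 on the plus strand (RefSeq, GRCm38.p6). This stretch lies before the RefSeq start at 100015821 but inside the gene span used for the counts, which begins at 100015630. The RefSeq starts of *Kit*, 75574987 and 75574991, also lie inside its span, which begins at 75574916.

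Kitl upstream: gggagggagctgTATAAAaagcgctggcgg

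*Csf2* and *Csf3* belong to the transcripts whose half-life is set by AU-rich elements in the 3′ UTR. The stretch of 30 bases with the most ATTTA pentamers is shown for each, with the pentamers in capitals, at chr11:54247329-54247358 on the minus strand for *Csf2* and chr11:98702984-98703013 on the plus strand for *Csf3* (GENCODE M21, GRCm38).

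Csf2 AU-rich stretch: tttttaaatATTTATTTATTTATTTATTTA
Csf3 AU-rich stretch: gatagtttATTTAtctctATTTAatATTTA

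The 3′ UTR of *Csf2* holds 9 pentamers in 317 bases, or 28.4 per kilobase, which is denser than in 99.9% of 21006 protein-coding 3′ UTRs. The 3′ UTR of *Csf3* holds 6 in 669 bases, or 8.97 per kilobase, denser than in 98.2% of them. The other members lie between 1.38 per kilobase (*Kit*) and 3.16 per kilobase (*Kitl*), against a median of 1.14 over all 3′ UTRs. A run of 3 pentamers that overlap by their end bases occurs in 0.866% of 3′ UTRs and, among the members, in *Csf2*. A match of letters describes the sequence and does not show that a protein binds there.

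Total counts lay between 50288454 and 82229553 per library, and levels are given as CPM, the count per 1000000 counts of a library after scaling by edgeR's TMM method, with factors from 0.968 to 1.03. Where a library had 0 counts of a gene, up to 3 counts are allowed, or between 0.0355 and 0.0613 CPM, which covers counting error alone. Senescent replicate 3 stood apart from the other senescent libraries, since its counts differed from those of replicate 2 by a median of 33.2 times the squared difference that sampling gives, against 2.33 times between senescent replicates 1 and 2. The cells expressed the fibroblast markers *Col1a1*, *Col3a1*, *Pdgfra* and *Vim* at between 485 and 4434 CPM on average in control and between 352 and 2459 CPM in senescent MAFs. Of 8 fibroblast markers, these 4 and *Col1a2* fell, whereas *Dcn* rose from 56.6 to 642 CPM on average, *Thy1* from 107 to 298 CPM and *Lum* from 124 to 223 CPM. They also expressed chondrocyte markers, whose summed level fell from between 7277 and 7890 CPM in control to between 633 and 730 CPM in senescent libraries. All 11 tested genes of that list were lower by the test described below, as were 34.1% of all tested genes. *Col2a1* and *Col11a1*, the most abundant of the list, fell from 2716 to 168 CPM and from 1952 to 259 CPM on average. In bulk RNA, fewer cells of a type and less RNA per cell cannot be told apart.

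The quasi-likelihood test of edgeR was used to compare control with senescent MAFs, and p-values were adjusted by Benjamini and Hochberg's method over the 17589 genes with enough counts. All 6 members that were tested were higher in senescent MAFs at an adjusted p under 0.05, with fold changes from 1.95 to 29.7. The 7th, *Kit*, had too few counts for the test, which required 0.173 CPM by total counts in at least 3 libraries. *Csf2* in no control library and *Csf3* in 1 of them reached that level, so both entered the test through the senescent libraries and could hardly have been called in the other direction. The other 4 reached it in all 6 libraries and were called higher, with fold changes from 1.95 to 5.16. Of all tested genes, 70.3% were called by this rule in either direction, 36.2% as higher and 34.1% as lower. The study's methods instead ask for a change of more than 2-fold and a p under 0.05 before adjustment, and 5 of the 6 met this, all except *Csf1r*. That threshold called 30.1% of all tested genes, and 17.8% as higher. The paper's results section states a different p limit for this comparison, which was not applied here. The 3 control and 3 senescent values of every tested member did not overlap, with all senescent values higher. The groups did not overlap for 75.4% of all tested genes, with the senescent values higher for 38.4%. The median log2 fold change was 1.41 over the 4 members that reached the filter level in every library, 1.81 over the 6 tested members and 0.01 over all tested genes. The values of each member were also compared by an exact two-sided permutation test, in which 3 against 3 samples cannot give a p below 0.1. Each of the 7 members gave 0.1, also after adjustment over the 7.

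**Figure D1:**
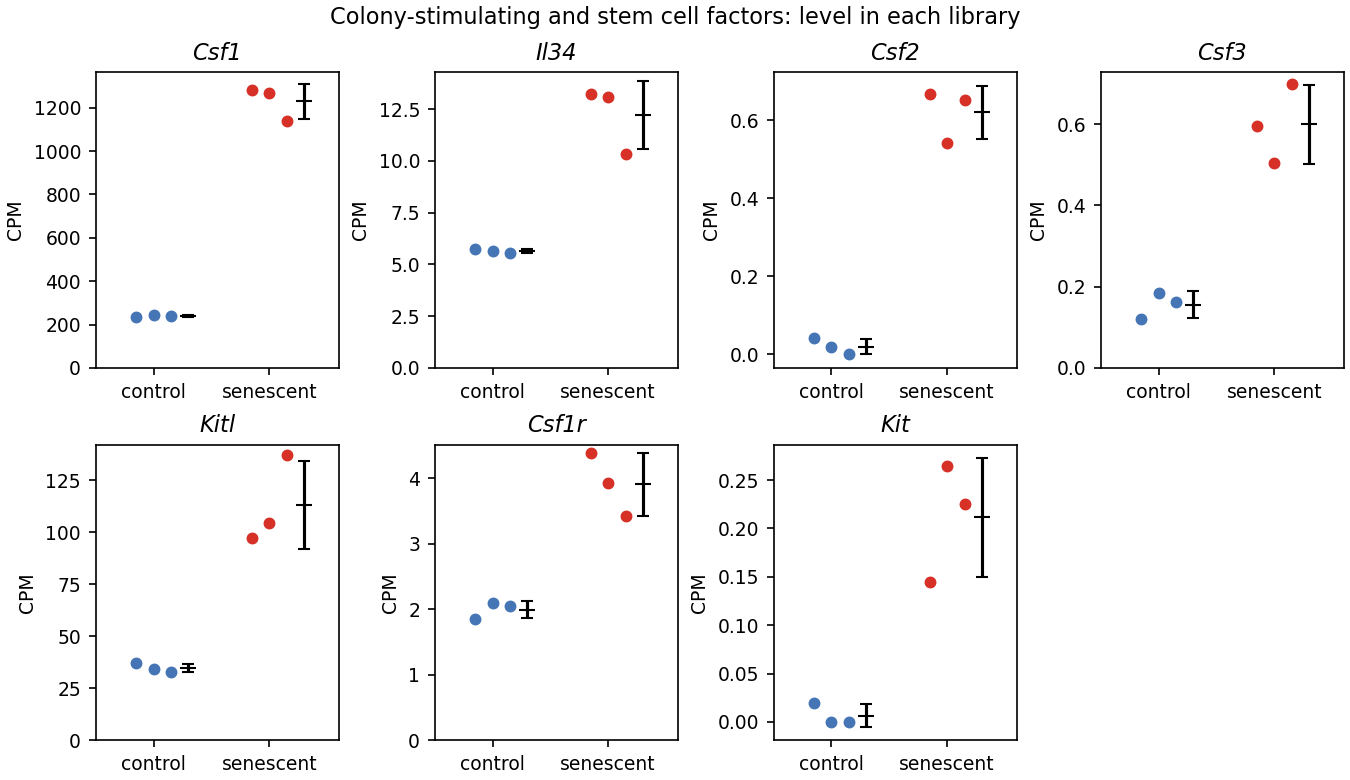
Level of each member in CPM in the 3 control (blue) and 3 senescent (red) libraries, with the mean and SD beside the points. Every senescent library lies above every control library for all 7 genes, and the scales run from 0.265 CPM at most for *Kit* to 1281 CPM at most for *Csf1*.

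*Csf1* (ENSMUSG00000014599, chromosome 3 of mm10 from 107741048 to 107760469), the main growth factor of macrophages, was at 233, 242 and 240.0 CPM in control replicates 1, 2 and 3, and at 1281, 1270 and 1136 CPM in senescent replicates 1, 2 and 3. The control values lay close together and the lowest senescent value, in replicate 3, was still far above them. This was a 5.16-fold increase, or 2.37 ± 0.07 on the log2 scale (± SE here and below for log2 fold changes; adjusted p = 5.99e-08, edgeR's quasi-likelihood test). The study also made a separate RNA-seq data set with *Bmal1* knockout cells, which was not used here. From it, by its own thresholds, the paper lists *Csf1* as increased in knockout but not wild-type senescent cells. Per exon length, *Csf1* exceeded 93.0% of tested genes in control and 99.2% in senescent MAFs.

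*Il34* (ENSMUSG00000031750, chromosome 8 from 110741829 to 110805924), the other ligand of CSF1R, was at 5.75, 5.64 and 5.56 CPM in control replicates 1, 2 and 3, and at 13.2, 13.1 and 10.3 CPM in senescent replicates 1, 2 and 3. As with *Csf1*, senescent replicate 3 was the lowest of its group and lay above all control values. The log2 fold change was 1.11 ± 0.11 (adjusted p = 6.54e-05, same edgeR test). A pair of antisense genes lies across *Il34*. *Gm15894* averaged 0.183 ± 0.0704 CPM over control and 0.262 ± 0.0734 CPM over senescent libraries (adjusted p = 0.274, same edgeR test), and *Gm15895* rose from 0.710 ± 0.217 to 1.56 ± 0.105 CPM (SD, n = 3 per group), with a log2 fold change of 1.15. The libraries keep strand, but the strand setting of the counting is not given in the sources used here, so part of the reads of overlapping genes could have been assigned to the partner.

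Since CSF1 and IL-34 share a receptor, the ratio of their transcripts per exon length was taken within each library, a choice made after the values had been seen. *Csf1* exceeded *Il34* by 15.05, 16.0 and 16.1 times in control replicates 1, 2 and 3, and by 36.0, 36.1 and 41.0 times in senescent replicates 1, 2 and 3. The senescent ratios all lay above the control ratios, and their mean was 2.40 times the control mean. *Csf1* exceeded *Csf1r* by 111 ± 5.15 times in control and 293 ± 19.4 times in senescent MAFs (SD, n = 3 per group), again without overlap. The ratio of *Il34* to *Csf1r* was 7.09 ± 0.593 in control and 7.79 ± 0.461 in senescent MAFs, and these values overlapped. The exact two-sided permutation p was 0.1 for each ratio with *Csf1* and 0.3 for *Il34* to *Csf1r*, or 0.15, 0.15 and 0.3 after Benjamini-Hochberg adjustment over the 3 ratios, and 0.1 is the smallest p this design allows.

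**Figure D2:**
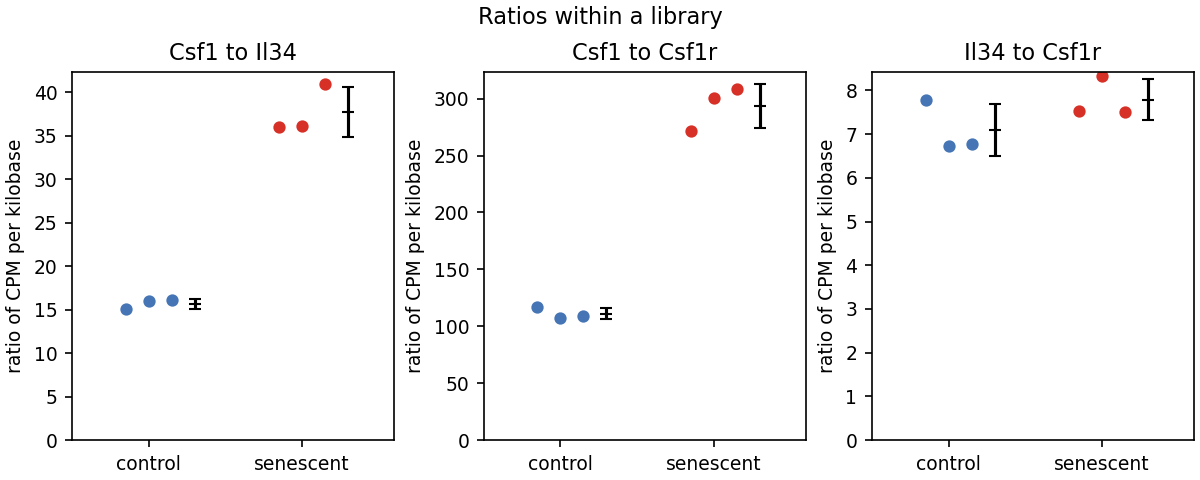
Ratios of CPM per kilobase of exon between CSF1R ligands and their receptor within each library, with the mean and SD beside the points. The ratios of *Csf1* to *Il34* and of *Csf1* to *Csf1r* are higher in all 3 senescent (red) than in all 3 control (blue) libraries, while those of *Il34* to *Csf1r* overlap between 6.72 and 8.32.

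*Csf2* (ENSMUSG00000018916, chromosome 11 from 54247271 to 54249667), which encodes GM-CSF, was found by 2, 1 and 0 counts in the control libraries, in replicate order, and by 37, 43 and 55 in the senescent libraries. In CPM, the senescent libraries lay at 0.667, 0.542 and 0.651, while control replicates 1 and 2 lay at 0.0401 and 0.0167 and control replicate 3, at 0, could hold up to 0.0613. The increase was thus seen in every senescent library, although the level stayed low beside that of *Csf1*. With 3 control counts in all, the ratio of the summed counts per library size was 32.6, with a 95% exact counting interval from 10.9 to 159.9. The log2 fold change was 4.89 ± 0.47 (adjusted p = 4.46e-05, same edgeR test). It was 5.80 without control replicate 1 and 4.40 without control replicate 3, so the size of the change rests on a few control counts. Senescent libraries also held 7, 8 and 15 counts of *Gm12223*, a gene antisense to *Csf2* across 2068 bases, and control libraries held none, where 3 counts per library are allowed.

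*Csf3* (ENSMUSG00000038067, chromosome 11 from 98701263 to 98703629), which encodes G-CSF, was found by 6, 11 and 8 counts in the control libraries and by 33, 40 and 59 in the senescent libraries, without overlap. In CPM, it rose from 0.156 ± 0.0325 in control to 0.599 ± 0.0971 in senescent MAFs (SD, n = 3 per group). The log2 fold change was 1.92 ± 0.27 (adjusted p = 0.000372, same edgeR test). The 95% intervals of the log2 fold changes were 1.29 to 2.55 for *Csf3* and 3.80 to 5.99 for *Csf2*, and the difference between the genes was not tested.

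*Kitl* (ENSMUSG00000019966, chromosome 10 from 100015630 to 100100413), stem cell factor, was at 37.0, 34.1 and 32.9 CPM in control replicates 1, 2 and 3, and at 97.4, 104.5 and 137 CPM in senescent replicates 1, 2 and 3. Senescent replicate 3 was the highest here, whereas it was the lowest for *Csf1*, *Il34* and *Csf1r*. The log2 fold change was 1.71 ± 0.13 (adjusted p = 1.15e-05, same edgeR test). It was 1.55 when senescent replicate 3 was left out. Per exon length, *Kitl* exceeded 56.4% of tested genes in control and 83.4% in senescent MAFs.

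*Csf1r* (ENSMUSG00000024621, chromosome 18 from 61105572 to 61132149), the receptor of CSF1 and IL-34, was at 1.84, 2.09 and 2.04 CPM in control replicates 1, 2 and 3, and at 4.38, 3.92 and 3.42 CPM in senescent replicates 1, 2 and 3. The groups did not overlap, and senescent replicate 1 was the highest. The log2 fold change was 0.97 ± 0.13 (adjusted p = 0.000284, same edgeR test), which is a 1.95-fold increase and just under the fold limit of the study's methods. It passed that limit with scaling by library size alone (1.04), with 10 counts or more asked of every library (1.01), and without senescent replicate 3 (1.06) or control replicate 2 (1.00). Its last 871 bases overlap *Hmgxb3* on the other strand, which rose from 42.3 ± 2.15 to 58.4 ± 5.97 CPM (SD, n = 3 per group).

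Macrophages carry CSF1R, and part of the markers listed for them were, like *Csf1r*, higher in senescent MAFs. Of 12 macrophage markers, 7 had enough counts for the test and were higher in senescent MAFs, as were 36.2% of all tested genes. Of these, *Cd68*, *Cd14* and *Mrc1* reached the filter level in every library, *Ptprc* and *Lyz2* in 2 of the 3 control libraries, and *Itgam* and *Cx3cr1* in none of them, so the last pair could enter the test only as higher. The summed level of the list was between 6.77 and 7.42 CPM in control and between 16.6 and 18.4 CPM in senescent libraries. *Lyz2* rose from 0.256 ± 0.159 to 4.51 ± 0.547 CPM and *Ptprc*, the leukocyte antigen CD45, from 0.181 ± 0.0618 to 1.39 ± 0.166 CPM (SD, n = 3 per group). *Cd14* and *Cd68*, the most abundant of the list, rose from 2.76 ± 0.396 to 5.06 ± 0.578 CPM and from 3.53 ± 0.220 to 4.60 ± 0.405 CPM. *C1qc* was at 0 counts in all 6 libraries, *C1qa*, *C1qb* and *Fcgr1* did not exceed 1 count in any, and *Adgre1*, which encodes F4/80, was at 0.0898 ± 0.0315 CPM in senescent MAFs. The part of such cells in the level of *Csf1r* was not tested.

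*Kit* (ENSMUSG00000005672, chromosome 5 from 75574916 to 75656722), the receptor of KITL, was found by 1, 0 and 0 counts in the control libraries and by 8, 21 and 19 in the senescent libraries. All senescent libraries thus lay above that limit of 3 counts, at 0.144 to 0.265 CPM, and no control library did. The ratio of summed counts per library size was 34.7, with a 95% exact counting interval from 5.94 to 1400.2. When no filter was applied beyond 1 count in total, the log2 fold change of *Kit* was 4.70 ± 0.84 (adjusted p = 0.000202, same edgeR test). Per exon length, its level in senescent MAFs exceeded 0.870% of tested genes.

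Mast cells and melanocytes are known for KIT, and their markers were given the same check. Of 9 mast cell markers, *Mcpt4* and *Fcer1a* had 0 counts in all libraries, and *Cpa3*, *Tpsb2*, *Tpsab1* and *Ms4a2* had 0 counts in every control library and at most 5 in any senescent library, while *Cma1* reached 7 counts in senescent replicate 2. *Hdc*, which reached the filter level in senescent libraries alone, rose from 0.0112 ± 0.0193 to 0.266 ± 0.0831 CPM (SD, n = 3 per group), and *Gata2*, which did not pass the test, held most of the summed level of the list, which was between 24.2 and 27.8 CPM in control and between 25.0 and 34.9 CPM in senescent libraries. Of 8 melanocyte markers, *Tyr* did not exceed 1 count in any library. *Dct* had no counts in senescent libraries, whereas *Tyrp1*, tested through the senescent libraries alone, rose from 0.00668 ± 0.0116 to 0.597 ± 0.0179 CPM and *Sox10* had 20, 34 and 8 counts in senescent replicates 1, 2 and 3 and 0 in the control libraries. The melanocyte list summed to between 11.4 and 12.4 CPM in control and between 11.4 and 13.1 CPM in senescent libraries, with *Mitf* and *Ednrb* the most abundant in control. Within that sum, *Ednrb* fell from 5.72 ± 0.328 to 2.18 ± 0.198 CPM and *Mitf* rose from 5.51 ± 0.780 to 8.45 ± 0.803 CPM (SD, n = 3 per group). The part of these cells in the level of *Kit* was not tested.

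Keratinocyte markers, listed because keratinocytes make IL-34, summed to between 16.4 and 17.0 CPM in control and between 9.52 and 9.94 CPM in senescent libraries. Without *Trp63*, which fell from 13.1 to 4.17 CPM on average, the other 7 summed to between 3.23 and 4.13 CPM in control and between 4.75 and 6.09 CPM in senescent libraries, higher in all 3. Of these 7, *Cdh1* had the largest rise, from 0.477 ± 0.108 to 1.91 ± 0.165 CPM (SD, n = 3 per group). *Krt10*, the most abundant of them in control, averaged 1.95 CPM in control and 1.94 CPM in senescent MAFs. *Krt5* did not pass the test (adjusted p = 0.0925, same edgeR test), and *Krt14* and *Krt1* were under 0.1 CPM on average in each group. The endothelial list rose from between 2.43 and 2.86 CPM to between 7.65 and 8.48 CPM. Its 4 tested genes were higher, as were 36.2% of all tested genes. *Pecam1* and *Tek* reached the filter level in every library, *Kdr* in 2 and *Cdh5* in 1 of the 3 control libraries. Of the 3 genes too low to test, *Emcn* and *Cldn5* had more counts in senescent libraries. *Tie1* had 2, 2 and 0 counts in control and 1, 1 and 0 in senescent libraries. The part of these cells in the members' levels was not tested.

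**Figure D3:**
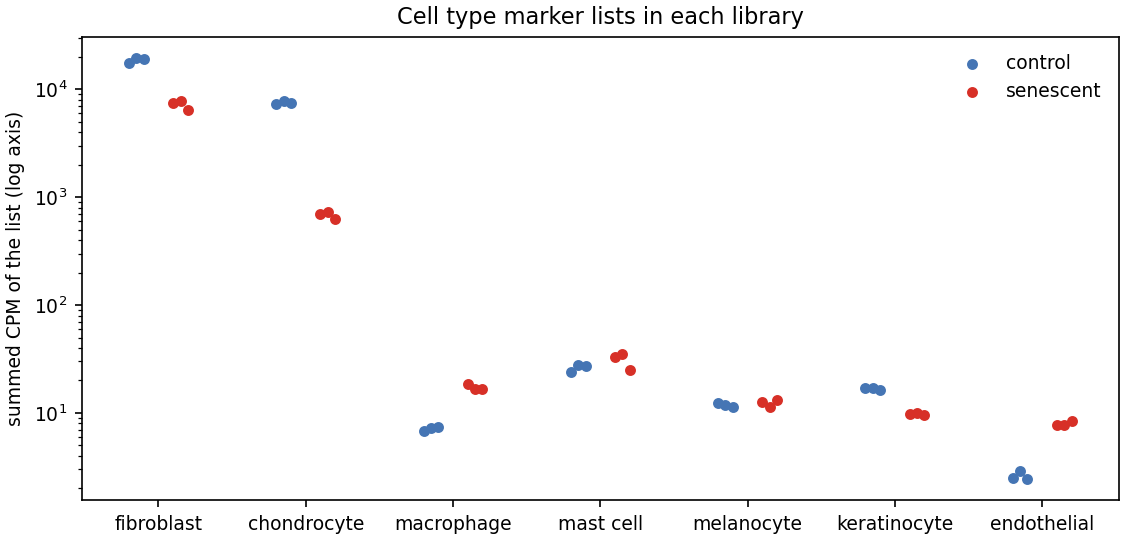
Summed CPM of each cell type marker list in each library, on a log axis, with control libraries in blue and senescent libraries in red. The summed macrophage and endothelial lists are higher and the summed fibroblast, chondrocyte and keratinocyte lists are lower in all 3 senescent libraries, while the mast cell and melanocyte lists overlap. *Dcn*, *Lum* and *Thy1* rose within the fibroblast list. The keratinocyte sum without *Trp63* is higher in senescent libraries, with the largest rise in *Cdh1*.

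The order of the members was compared in CPM per kilobase of exon, which allows levels of different genes to be set side by side. In control MAFs, *Csf1* led at 45.3 ± 0.954, followed by *Kitl* at 6.01 ± 0.362, *Il34* at 2.88 ± 0.0502, *Csf1r* at 0.408 ± 0.0268 and *Csf3* at 0.110 ± 0.0230 CPM per kilobase (SD, n = 3). *Csf2* and *Kit* came last and overlapped with each other. In senescent MAFs, *Csf1* was at 234 ± 15.3, *Kitl* at 19.6 ± 3.65 and *Il34* at 6.24 ± 0.841 CPM per kilobase. *Csf1r*, at 0.800 ± 0.0983, overlapped with *Csf2*, at 0.775 ± 0.0849 CPM per kilobase. *Csf3* followed at 0.424 ± 0.0687 and *Kit* was last at 0.0363 ± 0.0105 CPM per kilobase. *Csf2* was therefore below *Csf3* in every control library and above it in every senescent library, and the other members kept their order.

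**Figure D4:**
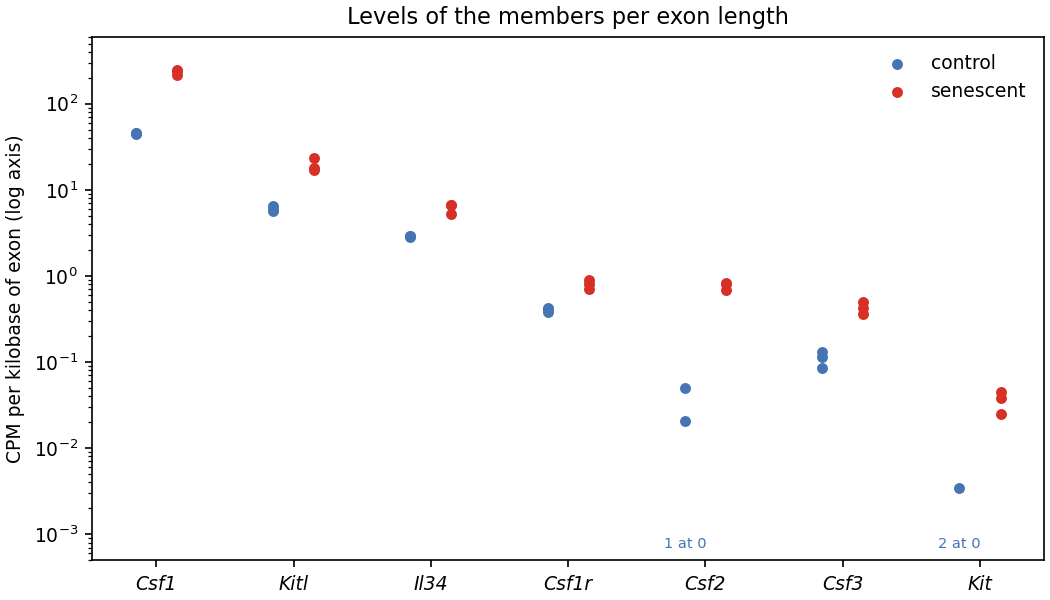
CPM per kilobase of exon of each member in control (blue) and senescent (red) libraries on a log axis, ordered by the senescent mean, with libraries at 0 counts written at the bottom. *Csf1* lies above all other members in each group, and *Csf2* lies below *Csf3* in control and above it in senescent libraries.

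Genes whose pattern over the 6 libraries was most like that of a member were found by the root mean square difference of log2 CPM after centring each gene on its mean, over the genes that averaged 100 counts or more. For *Csf1*, the closest were *Mical2* (0.03 log2 units) and *Ntn1* (0.05). For *Il34*, they were *Dpp7* (0.04) and *Sqstm1* (0.05), and for *Csf1r*, *Rgs3* and *Phlda3* (0.05 each). For *Kitl*, they were *Itga8* (0.04) and *Slc4a7* (0.05). For the low genes the likeness was looser, with *F13a1* (0.15) and *Chd7* (0.17) for *Csf2* and *Akr1c14* (0.11) and *Junos* (0.12) for *Csf3*. In 6 libraries of 2 groups, such likeness is set mainly by the difference between the groups.

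Receptors and ligands related to the members went in both directions. Of 16 genes listed, 8 were tested, 3 were higher and 5 lower in senescent MAFs, with a median log2 fold change of -0.81. Of all tested genes, 36.2% were higher and 34.1% lower. *Csf2rb*, the common beta chain through which GM-CSF signals, rose from 0.0256 ± 0.0310 to 0.881 ± 0.0322 CPM (SD, n = 3 per group), or by 5.02 ± 0.45 on the log2 scale (adjusted p = 3.04e-05, same edgeR test). Its control libraries held 3, 1 and 0 counts and its senescent libraries 47, 70 and 77, so it too entered the test through the senescent libraries, and reads could have been split with the near-identical *Csf2rb2*, which had 10, 11 and 9 counts in senescent libraries. *Csf2ra*, the GM-CSF binding chain, was at 3.65 ± 0.340 in control and 4.71 ± 0.621 CPM in senescent MAFs (log2 fold change 0.36, adjusted p = 0.0375, same edgeR test), a call that was lost without control replicate 1 or 3 or senescent replicate 1 or 2 (adjusted p from 0.104 to 0.123). The call of *Il3ra*, a receptor of IL-3 (log2 fold change -0.93), was lost without control replicate 2 or 3, at adjusted p of 0.0783 and 0.0726 by that test, and when every gene with a count was tested, at 0.120. *Csf3r*, the receptor of G-CSF, did not exceed 1 count in any library. *Ptprz1*, a further receptor of IL-34, rose with a log2 fold change of 1.77, and *Sdc1*, which also binds IL-34, fell from 136 ± 3.59 to 69.7 ± 11.1 CPM (SD, n = 3 per group). *Epo* and *Thpo*, the hormones of red cell and platelet formation, fell by 2.14 and 1.34 on the log2 scale. Those with too few counts for the test included *Csf2rb2*, *Csf3r*, *Il3*, *Il5*, *Il5ra*, *Flt3* and *Epor*.

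Among the receptor kinases related to CSF1R and KIT, 5 of 6 were tested, 3 were higher and 1 lower. The shares over all tested genes were 36.2% higher and 34.1% lower. The VEGF receptor genes *Flt1*, *Kdr* and *Flt4* rose by 4.97 ± 0.15, 3.81 ± 0.21 and 1.57 ± 0.12 on the log2 scale. *Pdgfra* fell from 485 ± 22.6 to 352 ± 14.5 CPM (SD, n = 3 per group). *Pdgfrb*, the neighbour of *Csf1r*, averaged 244 ± 9.26 CPM over control and 249.7 ± 31.5 CPM over senescent libraries (adjusted p = 0.755, same edgeR test), and passed the test without senescent replicate 3 at a log2 fold change of 0.14. *Kdr* is also in the endothelial marker list.

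Of 19 genes that carry signals from these receptors, 18 were tested, 10 were higher and 4 lower, with a median log2 fold change of 0.38. Over all tested genes, 36.2% were higher and 34.1% lower, or 70.3% called in either direction. *Gab2*, a docking protein for the kinase PI3K and the phosphatase SHP2, rose from 6.96 ± 0.832 to 34.4 ± 1.23 CPM (SD, n = 3 per group), or by 2.30 ± 0.10 on the log2 scale. *Plcg2* rose with a log2 fold change of 1.93, and *Ptpn6*, which encodes the phosphatase SHP-1 that dampens KIT signals, fell by 1.36 on the log2 scale. The calls of *Dok1* and *Lyn* were lost without some of the libraries, with adjusted p from 0.0804 to 0.107 by the same edgeR test without control replicate 1 or 3 or senescent replicate 1 or 2 for *Dok1* (0.0785 when every gene with a count was tested), and of 0.102 and 0.0959 without control replicates 2 and 3 for *Lyn*.

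CSF1, KITL and CSF1R can be cut from the cell surface by proteases. Of 6 genes of this process, all were tested, 3 were higher and 2 lower, against 36.2% and 34.1% of all tested genes. *Mmp9*, whose protease releases KITL, rose from 0.308 ± 0.166 to 3.52 ± 0.798 CPM (SD, n = 3 per group), or by 3.48 ± 0.34 on the log2 scale (adjusted p = 5.08e-05, same edgeR test). *Adam17*, the main shedding enzyme of CSF1 and its receptor, fell from 134 ± 1.34 to 69.6 ± 3.16 CPM, a log2 fold change of -0.95. *Timp3*, an inhibitor of ADAM17, rose from 5041 ± 119 to 6578 ± 593 CPM. The call of *Adam10* (log2 fold change -0.28, adjusted p = 0.0295, same edgeR test) was lost on leaving out any library except senescent replicate 3, with adjusted p from 0.0511 to 0.0991 by that test, and with scaling by library size alone (0.0891) or 10 counts or more asked of every library (0.0592).

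Factors known to control the decay of unstable mRNAs, many of which bind AU-rich elements, were listed as well. Of 10 genes, all were tested, 3 were higher and 4 lower, near the 36.2% and 34.1% of all tested genes. None of the 10 changed by more than 2-fold. *Zfp36*, which encodes the decay factor TTP, was at 16.9 ± 0.458 in control and 18.8 ± 2.35 CPM in senescent MAFs (SD, n = 3 per group; adjusted p = 0.224, same edgeR test), and passed the test without senescent replicate 3 at a log2 fold change of 0.25, as *Zc3h12a* did at 0.34. *Zfp36l1* fell and *Zfp36l2* rose, with log2 fold changes of -0.73 and 0.67. *Elavl1*, whose protein HuR stabilizes such mRNAs, rose with a log2 fold change of 0.46, and *Hnrnpd*, *Khsrp* and *Tia1* fell.

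**Figure D5:**
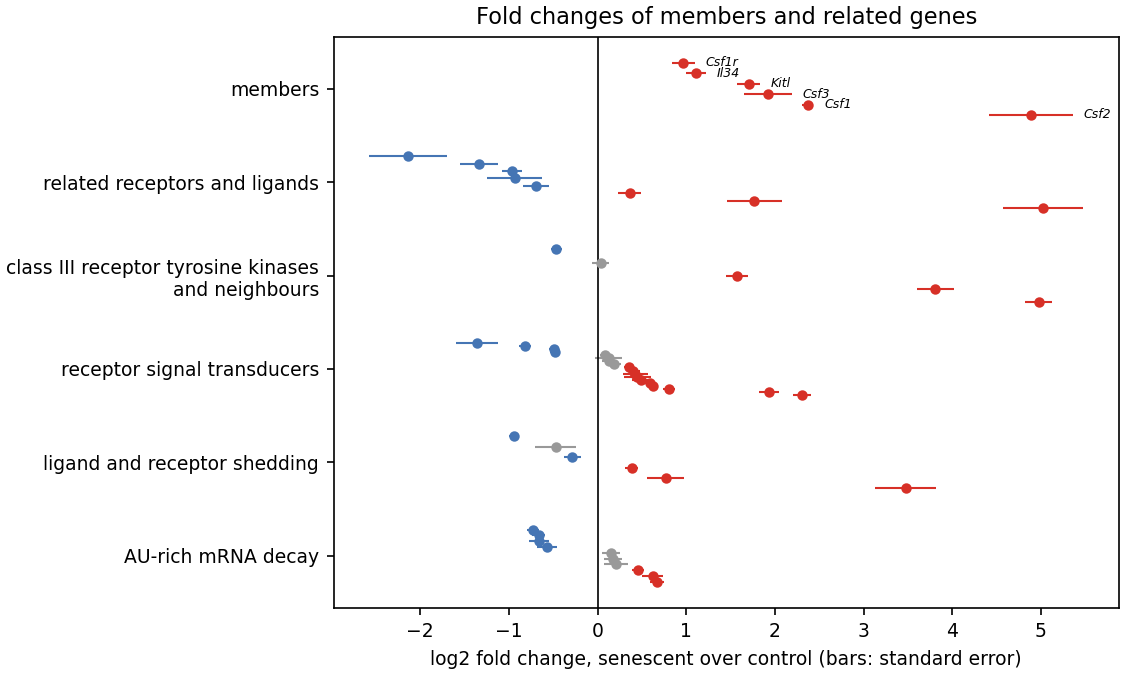
Log2 fold changes of senescent over control MAFs with standard errors for the 6 tested members and the tested genes of 5 related lists. Red and blue points passed an adjusted p of 0.05 as higher and lower in senescent MAFs and grey points did not, and the 6 members lie between 0.97 and 4.89 while each related list has genes on either side of 0.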

How the data were processed

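RNA-seq libraries (TruSeq Stranded mRNA, 200 ng of RNA, paired reads of 100 bases) were mapped by the authors with STAR (MAPRSeq pipeline, mm10) and counted per gene with Subread, and the deposited counts were not normalized. A Subread version is listed for the study without being tied to these libraries. The version of STAR for them, the strand setting and the treatment of multimapping reads are not given in the sources used here. The table also gives exon lengths.

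From these counts, genes were kept by filterByExpr (17589 of 43346), scaled by TMM and compared with the two-sided quasi-likelihood test of edgeR 4.0.16 (R 4.3.3, robust form, group as the only term), with Benjamini-Hochberg adjustment. Standard errors were computed from the log2 fold change and the F statistic. This test, edgeR's exact test and DESeq2 1.42.0 were first tested on simulated data. CPM per kilobase used the deposited lengths. Genes overlapping a member were taken from the table and strands from GENCODE M21. *Adgre1* was matched by its identifier, as the table calls it *Emr1*.

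The members and lists were chosen with earlier results of these data known. Named genes are the 7 members, up to 4 genes of each related list with an adjusted p under 0.05 and a fold change over 2 by smallest p, the 2 genes most like each tested member, genes overlapping a member, list genes too low to test, and, of each marker list, markers at 0 and the 2 most abundant. Others were chosen after their values were seen. A listed gene that was too low to test is not reported here. Alternatives were scaling by RLE or by library size alone, testing every gene with 1 count or more in total, at least 10 counts in every library, the exact test, DESeq2, a replicate block, adjusted p for the methods threshold, and leaving out each library.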

Additional observations from a re-analysis of the deposited data

How the results depend on the processing

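All 6 tested members stayed higher in senescent MAFs at an adjusted p under 0.05 in every alternative that tested them, with log2 fold changes of 2.34 to 2.45 for *Csf1*, 1.05 to 1.23 for *Il34*, 4.40 to 5.80 for *Csf2*, 1.77 to 2.07 for *Csf3*, 1.55 to 1.80 for *Kitl* and 0.88 to 1.06 for *Csf1r*. With the main filter, *Csf2* and *Csf3* entered through the senescent libraries, so their constant direction adds little support. Asking for 10 counts or more in every library left *Csf2*, *Csf3* and *Kit* untested, so 4 members were called. *Kit* had a log2 fold change of 4.70 without a filter. It passed the filter through its senescent counts without control replicate 1, 2 or 3 or senescent replicate 1, with values of 4.17 to 6.84 that give no support of their own. The methods threshold called between 5 and 7 members when a library was left out. With 10 counts or more asked of every library, the methods threshold called 3483 of 15205 genes, against 5300 of 17589. In that setting 3 shedding genes were called at an adjusted p under 0.05 rather than 5, because fewer genes were tested and the call of *Adam10* was lost. Whether samples that share a replicate number are paired is not given in the sources used here. Their deviations from the group means correlated at -0.15, 0.14 and -0.12, and control replicate 1 correlated best with senescent replicate 3. With 3 samples per group, such values cannot decide whether the samples are paired. With a replicate block, all 6 tested members were called, 5 of them by the methods threshold, and 11624 genes were called in place of 12365. Replicate 3 of the senescent group moved the calls of *Pdgfrb*, *Grb2*, *Src*, *Pik3ca*, *Zfp36* and *Zc3h12a*, which passed the test without it. Without a filter, the median of all genes rose to 0.31 on the log2 scale. Depth limits *Csf2* and *Kit*, whose control counts were 3 and 1 in all.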

Other observations

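Protein-coding genes within 50 kb of the members had values of their own. *Ahcyl1*, 44.5 kb from *Csf1*, averaged 237 ± 5.68 CPM over control and 249.0 ± 19.2 CPM over senescent libraries (SD, n = 3 per group). On the log2 scale this was a difference of 0.07 (adjusted p = 0.358, the quasi-likelihood test of edgeR). *Mtss1l*, 0.428 kb from *Il34*, fell from 61.5 ± 4.08 to 24.7 ± 4.18 CPM, and *Sf3b3*, 4.57 kb from it, averaged 267 ± 7.18 CPM over control and 262 ± 8.27 CPM over senescent libraries. *Vac14* and *Cog4*, also near *Il34*, had log2 fold changes of -0.02 (adjusted p = 0.912, same edgeR test) and -0.50. *Med24* and *Thra*, near *Csf3*, fell by 0.60 and 0.56 on the log2 scale, and *Psmd3* did not pass the test (log2 fold change -0.41, adjusted p = 0.0512, same edgeR test). *Il3*, the neighbour of *Csf2* at 15.6 kb, had 2 counts in senescent replicate 1 and none in the other libraries, whereas *Gsdma*, near *Csf3*, had 0 counts in the control libraries and 6, 5 and 10 in senescent replicates 1, 2 and 3. These genes were chosen by position after the values of the members had been seen.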
